A study of Rattus norvegicus with 63 samples.

Results

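The rat miRNAs rno-miR-15b, rno-miR-16, rno-miR-195, rno-miR-497 and rno-miR-322, written below without the species prefix, belong to 1 family, which is defined by a shared seed, the stretch of bases 2 to 8 with which a miRNA pairs to its target mRNAs. They were chosen by family name, with earlier results of these data known. All 5 were present among the 350 rat miRNAs on the array and among the 162 that were detected on at least 1 array and tested. miRNAs of this family are best known for restraining the cell cycle, because they repress mRNAs of cyclins, cyclin-dependent kinases and other growth genes, and miR-15b and miR-16 also repress the survival gene Bcl2. The members are encoded in separate clusters, which can be transcribed independently of each other. In the liver, miR-195 is known as a growth-restraining miRNA, and miR-15b and miR-16 are known for effects on the survival of stellate cells.

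The mature sequences are printed because the shared seed defines the family and because the rest of each sequence shows how close the members are to each other. They were taken from RefSeq (build GRCr8), which held all 5 members, and are written 5′ to 3′ with the seed in capitals.
miR-15b: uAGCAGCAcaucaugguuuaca
miR-16: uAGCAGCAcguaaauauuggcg
miR-195: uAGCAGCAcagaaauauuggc
miR-497: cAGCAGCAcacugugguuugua
miR-322: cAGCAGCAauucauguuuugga
All 5 members had the seed AGCAGCA, and no other mature name among the 724 of the RefSeq table had it. miR-15b (chr2:155555197-155555218) and miR-16 (chr2:155555343-155555364) lie 146 bases apart on the plus strand of chromosome 2, inside the gene Smc4, which encodes a subunit of condensin. miR-497 (chr10:55450172-55450193) and miR-195 (chr10:55450509-55450529) lie 337 bases apart on the plus strand of chromosome 10. miR-322 (chrX:137726198-137726219) lies on the minus strand of the X chromosome inside the lncRNA gene LOC102550366, 299 bases from miR-503. Sequence similarity did not follow the clusters. miR-16 and miR-195, which come from different chromosomes, were identical at 19 of 21 positions, whereas miR-16 and its cluster partner miR-15b were identical at 14 of 22 and miR-195 and miR-497 at 12 of 21. How far the array's probes tell miR-16 and miR-195 apart was not tested.

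miRNAs were measured in livers of male Wistar Hanover rats, 8 to 10 weeks old, that were dosed by gastric gavage with 1 of 15 compounds or with vehicle alone. Each of the 21 groups held 3 rats, and each liver was hybridised to its own array. The treated rats had been picked from larger dose groups because histopathology showed some change in their livers, so the groups do not represent every dosed rat. The comparisons ask which compounds changed the level of a miRNA and whether carcinogens differed from non-carcinogens (NC) and nongenotoxic carcinogens (NGC) from genotoxic carcinogens (GC). The NGC were phenobarbital sodium (PB, 14 days, no dose in the labels), piperonylbutoxide (PBO, 1200 mg/kg/d, 3 days), dehydroepiandrosterone (DHEA, 600 mg/kg/d, 14 days), acetamide (AA, 3000 mg/kg/d, 14 days), methapyrilene HCl (MPy, 60 mg/kg/d, 7 days), methylcarbamate (Mcarb, 400 mg/kg/d, 14 days), diethylstilbestrol (DES, 10 mg/kg/d, 3 days) and ethionine (ETH, 200 mg/kg/d, 14 days). The GC were C.I Direct Black (CIDB, 146 mg/kg/d, 7 days) and dimethylnitrosamine (DMN, 4 mg/kg/d, 7 days). The NC were cefuroxime (CFX, 250 mg/kg/d, 14 days) and nifedipine (Nif, 3 mg/kg/d, 14 days). Cyproterone acetate (CPA, 100 mg/kg/d, 14 days), thioacetamid (TAA, named as in the labels, 19.2 mg/kg/d, 7 days) and Wy-14643 (Wy, 60 mg/kg/d, 3 days) had no defined class.

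Every compound was compared with the vehicle control set that the labels assign to it. Methylcellulose (MC) set 1 served DHEA, AA, MPy, Mcarb, TAA and Wy, MC set 2 served CFX and Nif, MC set 5 served PBO, DES and ETH, and MC set 6 served PB. Each of the 4 MC sets is labelled as dosed for 14 days, although the methods call the controls time-matched. By the labels, for the 5 compounds given for 3 or 7 days against an MC set (PBO, DES, MPy, TAA and Wy), compound and duration cannot be told apart. The methods are not uniform on the dosing vehicle of the compounds not given in corn oil. Their text names carboxymethylcellulose for all of them, and their list of compounds names it for PB, PBO, CFX, Nif, TAA and Wy and methylcellulose for the others, while the control rats are labelled methylcellulose. Corn oil (CO) set 3, dosed for 7 days, served CIDB and DMN, and CO set 4, dosed for 14 days, served CPA. Compounds with a common control set share its sampling error, and their changes are therefore given side by side.

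The 63 arrays were spread over 9 slides and 3 scan days (30, 28 and 5 arrays), with between 81 and 151 miRNAs detected per array (median 107). All 5 members were detected and well above background on 63 of 63 arrays, each with 2 probes and 20 spots. Their median brightness before background subtraction ranged from 233 for miR-322 to 695 for miR-16, and after subtraction by the scanner software from 56.2 to 523. The values used here follow the study and keep the background, so that fold changes are compressed, most for the dimmest member miR-322. The study's own processed values, also made without background correction, held larger changes in DMN. They were 0.88 for miR-15b, 0.42 for miR-16, -0.50 for miR-195 and -0.43 for miR-497, against 0.49, 0.29, -0.29 and -0.25 here. The cause of the larger values was not tested. A level is given as a log2 value after normalization between arrays, and levels of different members were not compared. The liver miRNA miR-122, which marks hepatocytes, was detected on all 63 arrays.

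The deposited table of processed values did not follow the array files for every rat. Over the 71 miRNAs detected on all arrays, 48 of its 63 columns followed the array file of the same sample, while 15 followed the array of another sample (correlation with the array followed 0.84 to 0.96, with their own array -0.05 to 0.67). Among these, DES and DHEA were exchanged. The methylcellulose controls were rotated, with MC set 1 in the table matching array files labelled MC set 5, MC set 5 matching files labelled MC set 2, and MC set 2 matching files labelled MC set 1. Which assignment is right was not tested. All values below use the array files as labelled. The called changes of members, markers and related miRNAs that rest on these groups are also given with the assignment of the value table. In the level orders and the correlations over group means, that assignment only exchanges the names of whole groups.

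miR-15b was called higher in 5 compounds and lower in 1, and miR-16 higher in 3. miR-195 was called lower in 4 compounds and miR-497 in 2, and miR-322 was called higher in 1. Of the 75 combinations of 5 members and 15 compounds, 9 (12%) were called higher and 7 (9.33%) lower at an adjusted p below 0.05 (limma, Benjamini-Hochberg adjustment over the 162 miRNAs tested), beside 7.57% called higher and 6.71% called lower over all miRNAs and compounds. Treated and control rats did not overlap in 24 of the 75 combinations (32%), beside 29.5% over all miRNAs. These shares lay near those of all miRNAs, and they are not a result about the family as a whole. In PB, DHEA, DES, CFX, Nif and CPA no member was called by limma. At an unadjusted p below 0.05 there were 1 member in PB, 2 in CPA and 0 in the other 4. Over all tested miRNAs the calls reached 3.09% in PB, 18.5% in DHEA, 37% in DES, 5.56% in CPA and 0% in CFX and Nif (limma). In CFX and Nif, 1 and 20 miRNAs had an unadjusted p below 0.05. The DES arrays had no control array of the same scan day. Their 60 called miRNAs fell to 4 with the scan day and to 1 with the slide as a fixed block.

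**Figure D1:**
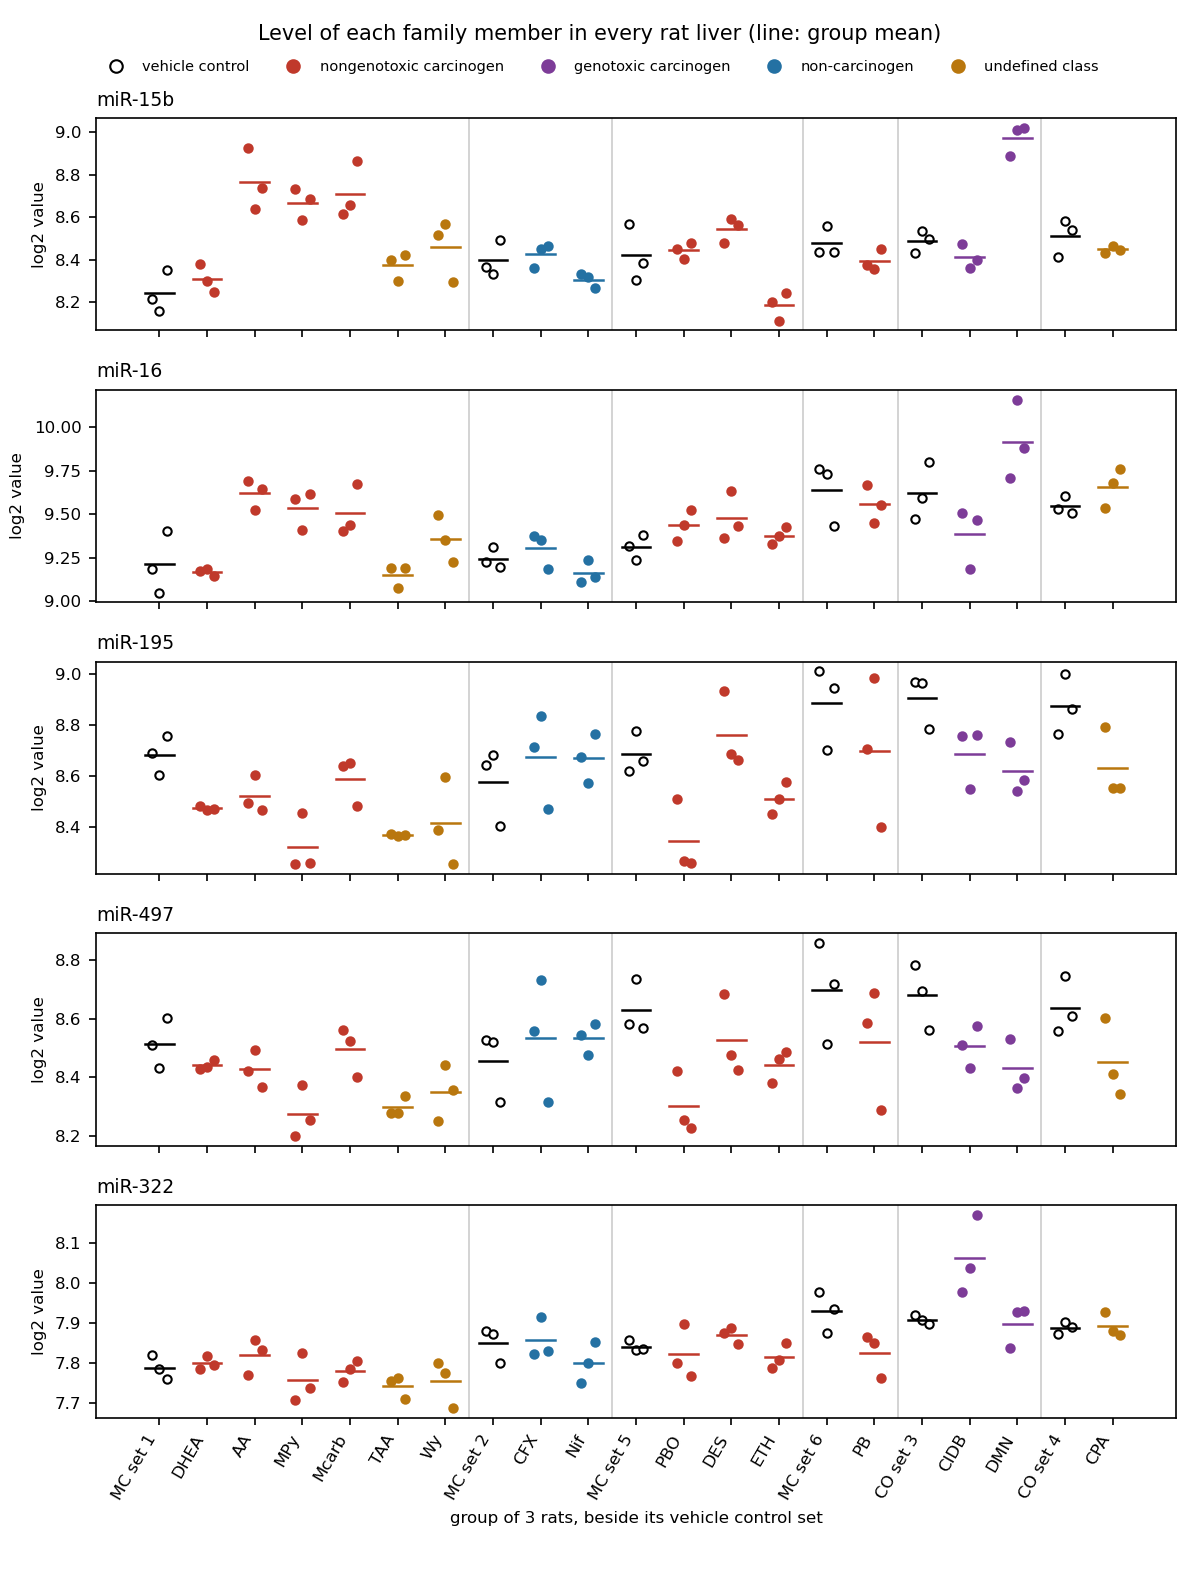
Level of each member in every rat (y axis, log2 value after normalization) for the 21 groups of 3 rats (x axis), each control set standing left of its compounds. Open points are vehicle rats, filled points treated rats coloured by class, and lines are group means. The miR-15b means of AA, MPy, Mcarb and DMN (8.67 to 8.97) stand above all 6 vehicle means (8.24 to 8.51).

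miR-15b was the member with the largest increases. It rose in AA, MPy, Mcarb and DMN by between 0.43 and 0.52 on the log2 scale, that is 1.34-fold to 1.44-fold, and in Wy by 0.22, and it fell in ETH. The size depends on the scale. With the background-subtracted signal, the 4 increases were 1.24 (AA), 1.18 (MPy), 1.16 (Mcarb) and 1.07 (DMN) when scaled over detected miRNAs, and 0.85, 0.66, 0.79 and 0.72 when scaled over all miRNAs. These scalings also move the median of all miRNAs, and relative to it the increases were 1.06, 0.80, 1.03 and 0.96 with the former and 1.02, 0.75, 1.00 and 0.83 with the latter. In the control rats of MC set 1 the levels were 8.21, 8.16 and 8.35. The levels were 8.92, 8.64 and 8.74 in the 3 AA rats, 8.73, 8.58 and 8.69 in the MPy rats, and 8.61, 8.66 and 8.86 in the Mcarb rats. All 9 of these treated rats lay above the highest of the 3 control rats. The log2(fold change) was 0.52 (SE 0.07, adjusted p = 1.95e-07) for AA, where 13.6% of all miRNAs were called. It was 0.43 (adjusted p = 8.02e-06) for MPy, with 18.5% called, and 0.47 (adjusted p = 2.86e-06) for Mcarb, with 1.85% called. miR-15b was thus among only 3 miRNAs called in Mcarb.

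In DMN, the levels of miR-15b were 8.89, 9.01 and 9.02, against 8.43, 8.53 and 8.50 in CO set 3. The treated rats lay apart from their controls, with a log2(fold change) of 0.49 (adjusted p = 2.00e-07), in a comparison in which 23.5% of all miRNAs were called. In Wy, the levels were 8.52, 8.57 and 8.30, so that 1 of the 3 rats lay within the range of MC set 1, and the difference of 0.22 (adjusted p = 0.0134, 25.9% of miRNAs called) was no longer called without Wy rat 1 (0.19, adjusted p = 0.0588), without Wy rat 2 (0.16, adjusted p = 0.118) or without rat 5 of MC set 1 (0.18, adjusted p = 0.0991). In ETH, the levels were 8.20, 8.11 and 8.24, below the 8.57, 8.31 and 8.39 of MC set 5, with a difference of -0.23 (adjusted p = 0.0120, 16% of miRNAs called). The ETH call was lost without ETH rat 2 (-0.20, adjusted p = 0.0999) and without rat 7 of MC set 5 (-0.16, adjusted p = 0.148). Under the value table's assignment, the ETH difference was -0.21 (adjusted p = 0.0257). In the other 9 compounds the differences of miR-15b ran from -0.09 to 0.13 and were not called, although against the pooled MC sets miR-15b was called higher in DES (0.16, adjusted p = 0.0149).

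The control set bears on these values. MC set 1 had the lowest miR-15b mean of the 6 control sets, 8.24 ± 0.10 (SD, n = 3), next to 8.40 ± 0.08 in MC set 2, 8.42 ± 0.13 in MC set 5, 8.48 ± 0.07 in MC set 6, 8.49 ± 0.05 in CO set 3 and 8.51 ± 0.09 in CO set 4. With the assignment of the value table, the increases were 0.35 in AA (adjusted p = 0.00127), 0.25 in MPy (adjusted p = 0.0101) and 0.29 in Mcarb (adjusted p = 0.0172), and against the pooled control rats of all 4 MC sets they were 0.38, 0.28 and 0.33. Against the assigned control sets and with the arrays as labelled, the calls in AA, MPy and Mcarb remained when any single rat was left out. The increase in Wy was 0.04 (adjusted p = 0.809) with the assignment of the value table and 0.08 (adjusted p = 0.312) against the pooled MC sets. With the slide as a fixed block, the log2(fold changes) were 0.44 in AA, 0.37 in MPy, 0.44 in Mcarb, 0.41 in DMN, 0.12 in Wy and -0.24 in ETH, and none was called (adjusted p = 0.0533 to 0.869). Within a scan day, where both arms were present, they were 0.48 in AA (1 treated rat and 2 controls), 0.41 in MPy, 0.48 and 0.44 in Mcarb (the latter with 1 rat in each arm), 0.49 in DMN and -0.23 in ETH. The TAA and Wy arrays had no control array of the same day, and with the scan day as a block the Wy difference was 0.21 (adjusted p = 0.126).

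miR-16, the cluster partner of miR-15b, rose in AA, MPy and DMN by 0.29 to 0.41. The levels were 9.69, 9.53 and 9.64 in AA and 9.59, 9.41 and 9.61 in MPy, against 9.19, 9.05 and 9.40 in MC set 1. No rat of either compound overlapped its controls, although the lowest MPy rat and the highest control rat were nearly level. The differences were 0.41 (SE 0.10, adjusted p = 0.00433) in AA and 0.32 (adjusted p = 0.0121) in MPy. In DMN, the levels of 9.71, 10.2 and 9.88 overlapped the 9.47, 9.60 and 9.80 of CO set 3, with a difference of 0.29 (adjusted p = 0.0301). In Mcarb the lowest treated rat and the highest control rat were level at 9.40, and the difference of 0.29 was not called (adjusted p = 0.118). Over all 15 compounds the differences of miR-16 were positive in 10 and ran from -0.24 in CIDB (adjusted p = 0.0861) upwards.

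Each of the 3 calls of miR-16 was lost when some single rat was left out. Leaving out rat 5 of MC set 1 lowered the increase to 0.33 in AA (adjusted p = 0.0736) and to 0.24 in MPy (adjusted p = 0.130), and the MPy call was also lost against the pooled MC sets (0.19, adjusted p = 0.0833) and without MPy rat 1 (0.30, adjusted p = 0.0512) or MPy rat 3 (0.29, adjusted p = 0.0708). In DMN, the call was lost without DMN rat 2 (0.17, adjusted p = 0.319), without rat 4 (0.22, adjusted p = 0.198) or without rat 5 of CO set 3 (0.28, adjusted p = 0.0786). With the assignment of the value table the increases were 0.31 in AA (adjusted p = 0.0721) and 0.23 in MPy (adjusted p = 0.134). With the slide as a fixed block they were 0.36 in AA, 0.25 in MPy and 0.25 in DMN, with no call. Within a scan day they were 0.42, 0.31 and 0.29. With the background-subtracted signal, miR-16 was called higher in 4 compounds when scaled over detected miRNAs and in 0 when scaled over all miRNAs. Over the alternatives run, the increases ranged from 0.27 to 0.67 in AA, 0.10 to 0.63 in MPy and 0.12 to 0.47 in DMN.

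miR-195 fell in MPy, PBO, TAA and DMN by 0.29 to 0.36, a level 18% to 22.1% below the controls on this compressed scale, and its differences were negative in 12 of the 15 compounds. With the background-subtracted signal, the differences were -0.38 (MPy), -0.67 (PBO), -0.26 (TAA) and -0.29 (DMN) when scaled over detected miRNAs, with a call in PBO alone, and -0.90, -0.79, -0.84 and -0.64 when scaled over all miRNAs, with calls in the first 3. Relative to the median of all miRNAs, they were -0.77, -0.61, -0.52 and -0.40 with the former and -0.81, -0.63, -0.59 and -0.53 with the latter. The levels in MPy were 8.26, 8.45 and 8.26, against 8.69, 8.61 and 8.76 in MC set 1. All 3 treated rats lay below all 3 controls, and the difference was -0.36 (SE 0.11, adjusted p = 0.00894). This call remained when any single rat was left out. In TAA, the levels were nearly identical among the rats at 8.37, 8.37 and 8.37, and the difference was -0.31 (adjusted p = 0.0287, 21.6% of all miRNAs called). In PBO, the levels were 8.51, 8.27 and 8.26, against 8.62, 8.78 and 8.66 in MC set 5, with a difference of -0.34 (adjusted p = 0.0274, 8.64% of all miRNAs called). In DMN they were 8.73, 8.54 and 8.58, against 8.97, 8.97 and 8.78 in CO set 3, with a difference of -0.29 (adjusted p = 0.0419). In each of these 4 compounds the treated rats did not overlap the controls, and the same held without a call in DHEA (-0.21), ETH (-0.17), CIDB (-0.22) and Wy (-0.27, adjusted p = 0.0529). By the value table's assignment, the miR-195 difference was 0.07 in DHEA, -0.06 in ETH and -0.27 in Wy, none called.

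miR-497 fell in PBO and DMN. The levels in PBO were 8.42, 8.25 and 8.23, against 8.58, 8.74 and 8.57 in MC set 5, a difference of -0.33 (SE 0.09, adjusted p = 0.0118). In DMN they were 8.53, 8.36 and 8.40, against 8.78, 8.69 and 8.56 in CO set 3, a difference of -0.25 (adjusted p = 0.0388). Taken alone, the 2 probes of miR-497 gave -0.14 (adjusted p = 0.196) and -0.35 (adjusted p = 0.0135) in DMN. In both compounds the treated rats lay below all controls, by only a narrow gap in DMN. With the background-subtracted signal, relative to the median of all miRNAs, the differences were -0.63 and -0.65 in PBO and -0.40 and -0.53 in DMN with the scaling over detected and over all miRNAs. MPy (-0.24, adjusted p = 0.0573), TAA (-0.22, adjusted p = 0.0798) and ETH (-0.18, adjusted p = 0.171) had lower values in all treated rats without a call, with ETH at -0.01 under the assignment of the value table. The differences of miR-497 were negative in 13 of 15 compounds, with CFX and Nif, the NC, as the exceptions (0.08 each). For miR-195, the exceptions were CFX (0.10), Nif (0.09) and DES (0.07). These directions depend on the controls. When arrays were assigned as in the value table, miR-195 was at -0.01 in both NC and -0.10 in DES, and miR-497 at 0.02 in both NC. Against the pooled MC sets, both members were at -0.04 in both NC.

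Of the 4 calls of miR-195 and 2 of miR-497, only that of miR-195 in MPy was kept whichever rat was left out. The PBO call of miR-195 was lost without PBO rat 2 (-0.30, adjusted p = 0.125), PBO rat 3 (-0.30, adjusted p = 0.153) or rats 8 or 9 of MC set 5 (-0.29 and -0.35, adjusted p = 0.160 and 0.0581). The DMN call was lost without DMN rats 2 or 3 (-0.25 and -0.27, adjusted p = 0.168 and 0.109) or rats 4 or 5 of CO set 3 (-0.25 and -0.26, adjusted p = 0.156 and 0.133). In TAA, leaving out any of the 3 treated rats or rats 4 or 6 of MC set 1 gave differences of -0.31 to -0.28 (adjusted p = 0.0641 to 0.0831). For miR-497, the PBO call was lost without PBO rats 2 or 3 (-0.30 and -0.29, adjusted p = 0.0625 and 0.0744) or rat 8 of MC set 5 (-0.27, adjusted p = 0.123), and the DMN call without DMN rats 2 or 3 (-0.22 and -0.23, adjusted p = 0.161 and 0.107) or rats 4 or 5 of CO set 3 (-0.20 and -0.24, adjusted p = 0.201 and 0.101).

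The assignment of arrays also changed which compounds were called. With the assignment of the value table, miR-195 was called lower in MPy (-0.36, adjusted p = 0.0154) and DMN, but not in PBO (-0.23, adjusted p = 0.121) or TAA (-0.31, adjusted p = 0.0534). With the same assignment, miR-497 was called lower in MPy (-0.35, adjusted p = 0.00863), TAA (-0.33, adjusted p = 0.0136), Wy (-0.28, adjusted p = 0.0381) and DMN, and not in PBO (-0.15, adjusted p = 0.241). Against the pooled MC sets, miR-195 was also called lower in DHEA (-0.23, adjusted p = 0.0349) and Wy (-0.29, adjusted p = 0.00592), and miR-497 in MPy (-0.30, adjusted p = 0.00164), TAA (-0.28, adjusted p = 0.00540) and Wy (-0.22, adjusted p = 0.0139). With the slide as a fixed block, the PBO decreases were -0.37 for miR-195 (adjusted p = 0.0186) and -0.35 for miR-497 (adjusted p = 0.00991), and the others were not called, at -0.28 (MPy), -0.28 (DMN) and -0.31 (TAA) for miR-195 and -0.18 (DMN) for miR-497. Within a scan day, miR-195 differed by -0.36 in MPy, -0.34 in PBO and -0.29 in DMN, and miR-497 by -0.33 in PBO and -0.25 in DMN. TAA had no control array of the same day, and with the scan day as a block its miR-195 difference was -0.52 (adjusted p = 0.00304).

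miR-322 rose in CIDB. The levels were 7.98, 8.04 and 8.17 in the treated rats and 7.92, 7.91 and 7.90 in CO set 3, so that the groups lay apart. The difference was 0.15 (SE 0.04, adjusted p = 0.00183), in a comparison in which 20.4% of all miRNAs were called. The difference was larger after background correction, at 0.26 with normexp and at 0.71 and 0.87 with the scanner's background-subtracted signal (0.54 and 0.56 relative to the median of all miRNAs). It was 0.63 in the deposited value table, which was made without background correction, and the cause of that larger value was not tested. The call was lost without CIDB rat 3 (0.10, adjusted p = 0.0630), and the difference was 0.17 within the 1 scan day that held both arms (2 treated rats). The value with the slide as a fixed block (0.26, adjusted p = 0.000122) rests on CIDB rat 3 alone, the highest of the 3, which was the only treated rat on the slide of its controls. In the other 14 compounds miR-322 differed by -0.10 to 0.03 and was not called. Against the pooled MC sets it was called lower in MPy (-0.10, adjusted p = 0.0143), TAA (-0.11, adjusted p = 0.00726) and Wy (-0.10, adjusted p = 0.00918).

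**Figure D2:**
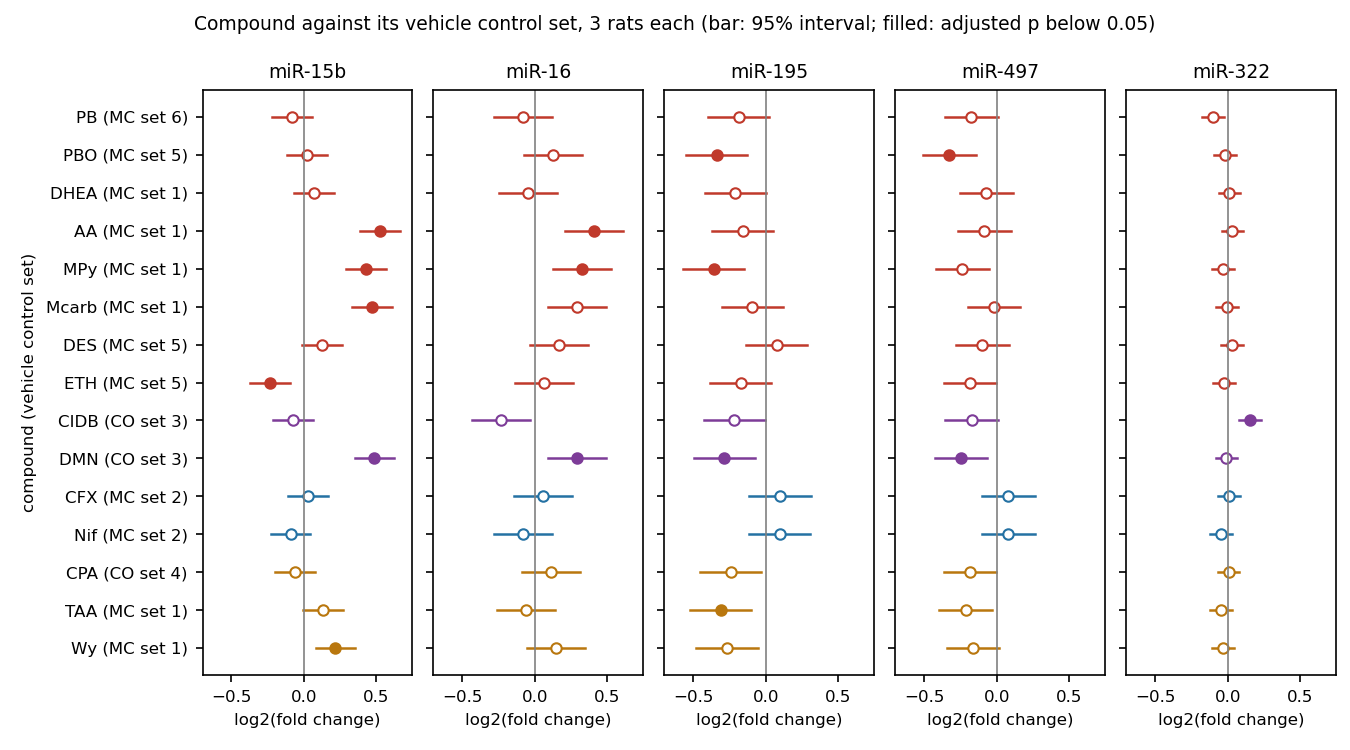
Log2(fold change) of each member (x axis) for the 15 compounds against their control sets (y axis), 3 rats each, with 95% intervals and filled points where the adjusted p was below 0.05 (red NGC, purple GC, blue NC, ochre undefined class). The filled points of miR-15b and miR-16 lie to the right apart from miR-15b in ETH (-0.23), those of miR-195 and miR-497 to the left, and miR-322 has 1, in CIDB (0.15).

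In MPy and DMN, members of the family were called in opposite directions. In MPy, miR-15b (0.43) and miR-16 (0.32) rose while miR-195 (-0.36) fell and miR-497 was at -0.24 (adjusted p = 0.0573). In DMN, miR-15b (0.49) and miR-16 (0.29) rose while miR-195 (-0.29) and miR-497 (-0.25) fell. The DMN changes of miR-16, miR-195 and miR-497 were each called by only 1 of their 2 probes taken alone. miR-322 was at -0.03 in MPy and -0.01 in DMN, neither called. The 2 compounds used different control sets, MC set 1 and CO set 3, and all 6 treated arrays lay on the same scan day as control arrays. Neither compound shared a slide with its controls, since DMN lay on slide 2 and CO set 3 on slide 3, and MPy on slide 5 and MC set 1 on slides 8 and 9. In AA, miR-15b and miR-16 were called higher, while miR-195 (-0.16, adjusted p = 0.378) and miR-497 (-0.09, adjusted p = 0.640) were not called. In PBO, miR-195 and miR-497 were called lower, while miR-15b (0.02, adjusted p = 0.853) and miR-16 (0.12, adjusted p = 0.474) were not called. Differences between compounds were not tested. In whole liver, a change in the number of cells of a type and a change of RNA per cell cannot be told apart.

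The markers of other cell types were read beside these changes. In DMN, leukocyte markers rose, with 3 of 4 measured miRNAs called (miR-142-3p by 0.76, miR-223 by 0.40 and miR-142-5p by 0.18). The summed leukocyte level, on the linear scale and led by miR-142-3p, was 1148, 1380 and 1318 in the DMN rats and 974, 909 and 965 in their controls. Stellate and smooth muscle markers fell in DMN, with 3 of 4 called (miR-143 by -0.33, miR-199a-3p by -0.24 and miR-199a-5p by -0.06) and a sum, led by miR-143, of 942, 926 and 949 against 1026, 1073 and 1155. The smooth muscle miRNA miR-145 was detected on no array, and miR-214 was not called. The endothelial miR-126 fell by 0.18. Of the 3 hepatocyte markers, miR-122 was called lower (-0.09), and miR-192 and miR-194 were not called. miR-122 lay at the top of the normalized scale in most groups, where quantile normalization holds values nearly fixed, so that the size of its differences is uncertain. The red cell markers were not called, and miR-155 was not analysed here. The part of these markers in the changes of the family was not tested.

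In MPy, 1 of 3 hepatocyte markers was called (miR-194 at -0.32) and none of the leukocyte, stellate, endothelial or red cell lists. In AA the only marker called was miR-143 (0.18), and in Mcarb no marker of any list was called. In PBO, miR-192 was called lower (-0.24), and the summed red cell markers miR-144 and miR-451, led by miR-451, were 1146, 1433 and 2533 against 1350, 901 and 1018 in MC set 5, with no call. In TAA and Wy, miR-143 was called lower (-0.19 and -0.22). In ETH, miR-192 (-0.66) and miR-194 (-0.55) fell, while miR-143 (0.19), miR-142-3p (0.32) and miR-142-5p (0.09) rose. In CIDB, miR-122 (-0.33), miR-192 (-0.50) and miR-223 (-0.15) fell. The summed hepatocyte level, led by miR-122, was 24903, 21349 and 20606 in the CIDB rats and 28757, 28542 and 26890 in CO set 3, so that all 3 treated rats lay lower, with CIDB rat 3, the highest in miR-322, the lowest. With the assignment of the value table, miR-143 was no longer called in TAA (-0.13, adjusted p = 0.189) or Wy (-0.16, adjusted p = 0.0512), nor were miR-142-3p (0.25, adjusted p = 0.136) and miR-142-5p (0.07, adjusted p = 0.0545) in ETH. The calls of miR-194 in MPy, miR-143 in AA, miR-192 in PBO and miR-192, miR-194 and miR-143 in ETH were kept, while miR-192 in MPy (-0.22), miR-194 (-0.22), miR-143 (-0.17) and miR-150 (-0.08) in PBO and miR-194 in Wy (0.19) were called in addition. As in DMN, the part of the markers was not tested.

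Over the 21 group means, miR-195 and miR-497 had a Pearson correlation of 0.95, and miR-15b and miR-16 of 0.75. Over the 63 arrays with the group means removed, which describes the variation among rats of a group, the correlations were 0.93 and 0.53. Between the clusters they were weaker, at -0.02 for miR-15b and miR-195 and 0.29 for miR-16 and miR-195 over the group means. The most similar pair in sequence, miR-16 and miR-195, thus had a lower correlation than either pair of cluster partners. miR-322 had a correlation of 0.62 with miR-195 and 0.10 with miR-15b. All of these points share arrays, slides and scan days, and they are a description.

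**Figure D3:**
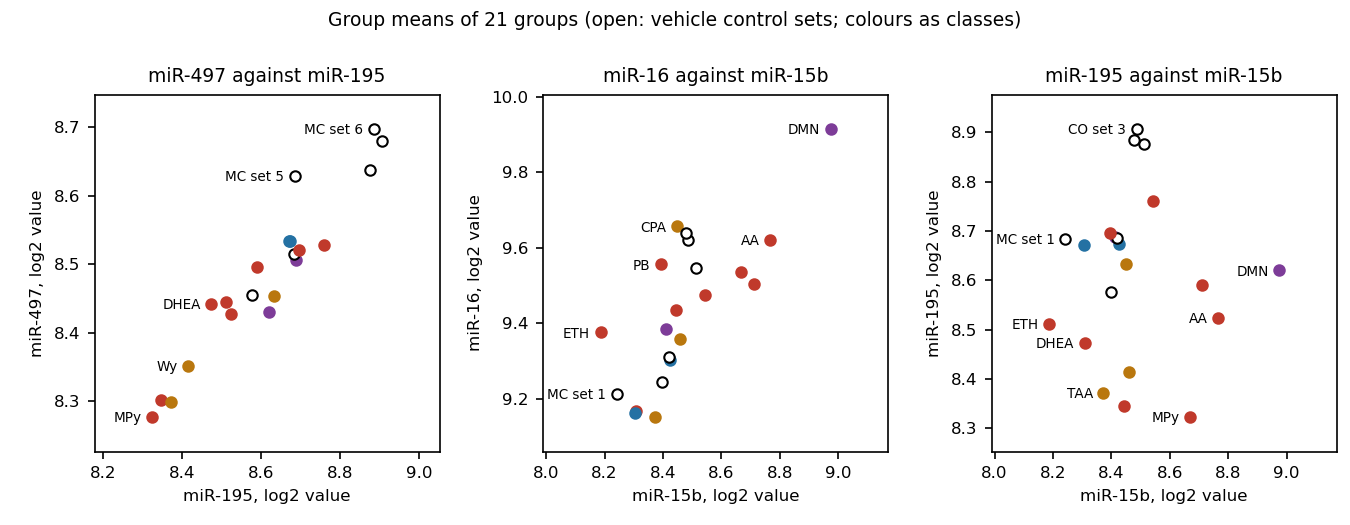
Group means of 21 groups as log2 values, with 1 member on each axis. Open points are control sets and filled points compounds (red NGC, purple GC, blue NC, ochre undefined class). miR-497 follows miR-195 closely (r = 0.95), miR-16 follows miR-15b less closely (r = 0.75), and miR-195 shows no relation to miR-15b (r = -0.02).

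Among the 103 other miRNAs detected on at least 32 arrays, the most similar patterns over the 21 group means were the following. For miR-15b they were miR-16 (0.75), miR-106b (0.74) and miR-301a (0.69), and for miR-16 they were miR-130a (0.84), miR-106b (0.81) and let-7i (0.76). For miR-195 they were miR-497 (0.95), let-7e (0.79) and miR-30a* (0.74), and for miR-497 they were miR-195, miR-30a* (0.72) and let-7e (0.70). For miR-322 they were let-7e (0.74), miR-126 (0.70) and miR-212 (0.63). Cluster partners had miRNAs in common, miR-106b for miR-15b and miR-16, and let-7e and miR-30a* for miR-195 and miR-497.

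The level of each member was ordered over all 21 groups. For miR-15b the means ran from 8.97 in DMN over AA (8.77), Mcarb (8.71), MPy (8.67), DES (8.54), CO set 4 (8.51), CO set 3 (8.49), MC set 6 (8.48), Wy (8.46), CPA (8.45), PBO (8.44), CFX (8.42), MC set 5 (8.42), CIDB (8.41), MC set 2 (8.40), PB (8.39), TAA (8.37), DHEA (8.31), Nif (8.31) and MC set 1 (8.24) to 8.19 in ETH. For miR-16 they ran from 9.91 in DMN over CPA (9.66), MC set 6 (9.64), CO set 3 (9.62), AA (9.62), PB (9.56), CO set 4 (9.55), MPy (9.54), Mcarb (9.50), DES (9.48), PBO (9.43), CIDB (9.39), ETH (9.38), Wy (9.36), MC set 5 (9.31), CFX (9.30), MC set 2 (9.24), MC set 1 (9.21), DHEA (9.17) and Nif (9.16) to 9.15 in TAA. The position of MC set 6, CO set 3 and CO set 4 near the top for miR-16 shows that the control sets alone covered much of its range. The SD within a group lay between 0.02 and 0.15 for miR-15b and between 0.02 and 0.23 for miR-16, and in both members the rats of every pair of neighbouring groups overlapped (20 of 20 pairs).

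For miR-195 the means ran from 8.91 in CO set 3 over MC set 6 (8.89), CO set 4 (8.88), DES (8.76), PB (8.70), CIDB (8.69), MC set 5 (8.69), MC set 1 (8.68), CFX (8.67), Nif (8.67), CPA (8.63), DMN (8.62), Mcarb (8.59), MC set 2 (8.58), AA (8.52), ETH (8.51), DHEA (8.47), Wy (8.42), TAA (8.37) and PBO (8.35) to 8.32 in MPy. For miR-497 they ran from 8.70 in MC set 6 over CO set 3 (8.68), CO set 4 (8.64), MC set 5 (8.63), CFX (8.53), Nif (8.53), DES (8.53), PB (8.52), MC set 1 (8.52), CIDB (8.51), Mcarb (8.50), MC set 2 (8.45), CPA (8.45), ETH (8.44), DHEA (8.44), DMN (8.43), AA (8.43), Wy (8.35), PBO (8.30) and TAA (8.30) to 8.28 in MPy. Both members shared their 3 lowest groups, MPy, PBO and TAA. For miR-322 the means ran from 8.06 in CIDB over MC set 6 (7.93), CO set 3 (7.91), DMN (7.90), CPA (7.89), CO set 4 (7.89), DES (7.87), CFX (7.86), MC set 2 (7.85), MC set 5 (7.84), PB (7.83), PBO (7.82), AA (7.82), ETH (7.82), Nif (7.80), DHEA (7.80), MC set 1 (7.79), Mcarb (7.78), MPy (7.76) and Wy (7.76) to 7.74 in TAA. Neighbouring groups overlapped in 20 of 20 pairs for miR-195 and miR-497 and in 19 of 20 for miR-322, where CIDB and MC set 6 did not overlap. MC set 6, CO set 3, CO set 4 and DES, high for miR-195 and miR-322, lay on slides 1 to 3 of the first scan day. TAA and Wy, low for both, lay on slide 4 of the same day. Group and slide are not separated in the level orders of the members.

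The vehicle sets themselves differed in the members. In the 7 comparisons of vehicle sets with the same vehicle, 5 differences of members were called, all of them against MC set 6. MC set 1 was lower than MC set 6 in miR-15b (-0.24, adjusted p = 0.0114), miR-16 (-0.43, adjusted p = 0.00165) and miR-322 (-0.14, adjusted p = 0.00561), in a comparison in which 20.4% of all miRNAs were called. miR-16 was also lower in MC set 2 (-0.40, adjusted p = 0.00801, 6.79% of all miRNAs called) and in MC set 5 (-0.33, adjusted p = 0.0327, 9.26% called). When assigned as in the value table, the 5 calls were again all against MC set 6, for miR-15b and miR-322 in MC set 2 and for miR-16 in MC sets 1, 2 and 5. The miR-16 levels of MC set 6 were 9.76, 9.73 and 9.43, all above the 9 other methylcellulose rats, of which the highest reached 9.40. MC set 6 was scanned on the first scan day and MC sets 1, 2 and 5 on the others, so set and scan day cannot be told apart. None of the 5 calls remained with slide or scan day as a block. No member was called in the other 4 comparisons of vehicle sets, in which limma called none of the 162 miRNAs (between 1 and 21 had an unadjusted p below 0.05). These differences between untreated rats were as large as several of the changes with compounds.

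The classes were compared over the log2(fold changes) of the compounds, with 10 carcinogens (8 NGC and 2 GC) and 2 NC. No member and no other miRNA was called (0% of 162, limma) for carcinogens against NC, NGC against GC or NGC against NC, where 9, 19 and 11 miRNAs had an unadjusted p below 0.05. miR-497 averaged -0.16 ± 0.09 (SD, n = 10) in the carcinogens and 0.08 in both NC, a difference of -0.24 (limma, adjusted p = 0.546), with every carcinogen below both NC. miR-195 averaged -0.20 ± 0.13 against 0.10 and 0.09, a difference of -0.29 (limma, adjusted p = 0.546), again with every carcinogen below both NC. An exact two-sided permutation test of the compounds gave p = 0.0152 for each, the smallest value that 66 assignments allow, with 15 such tests made over the family. Neither passed 0.05 after correction for these tests. CFX and Nif share MC set 2, so that their values are not independent of each other, and MC set 2 had the lowest miR-195 and miR-497 means of the 6 control sets (8.58 and 8.45). The separation of the classes depended on the controls. With the assignment of the value table, the difference was -0.15 for miR-195 (exact permutation p = 0.136), with DHEA (0.07) above both NC, and -0.18 for miR-497 (exact permutation p = 0.0455). With the slide as a fixed block, miR-195 differed by -0.54 and was called (limma, adjusted p = 0.0253). With that block, miR-322 was called for NGC against GC (-0.28, limma, adjusted p = 0.0435). These blocked values rest on single arrays that link slides. Both GC values of miR-322 (0.26 in CIDB and 0.18 in DMN) depend on CIDB rat 3, so they are not independent. The miR-195 value of Nif (0.41, against 0.09 without the block) depends on CFX rat 3 and rat 4 of MC set 1. Against pooled controls of the same vehicle, the differences of miR-195 and miR-497 were -0.16 and -0.11 (exact permutation p = 0.182 and 0.0606).

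The other miRNAs that begin with related bases were followed as far as the array held them. miR-107 and miR-103, whose 5′ ends carry the same AGCAGCA shifted by 1 base, differ from each other at 1 of 23 positions and are printed for comparison with the family, with their bases 2 to 8 in capitals.
miR-107: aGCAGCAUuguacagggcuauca
miR-103: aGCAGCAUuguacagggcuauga
Their calls were the following. miR-107 rose in DES (0.89, adjusted p = 3.63e-20), Wy (0.81) and PBO (0.21) and fell in CIDB (-0.14). miR-103 rose in DES (0.15) and fell in ETH (-0.10) and CIDB (-0.13). The DES and Wy arrays had no control array of the same scan day, so compound and scan day are not separated within these 2 comparisons. In the value table's assignment, the increases of miR-107 (0.89) and miR-103 (0.15) belonged to DHEA, and DES was at -0.01 and -0.06. The other calls were kept, with miR-107 at 0.84 in Wy and 0.18 in PBO and miR-103 at -0.13 in ETH. miR-503, the neighbour of miR-322 on the X chromosome, and miR-351, miR-450a and miR-542-5p of the same cluster were detected on no array. miR-542-3p of that cluster was detected on 3 arrays and well above background on 1, and the passenger strand miR-322* was detected on 1 and well above background on 0, so no change is read for either. miR-15a, miR-424, miR-646 and the passenger strands of the other 4 members were not analysed here.

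**Figure D4:**
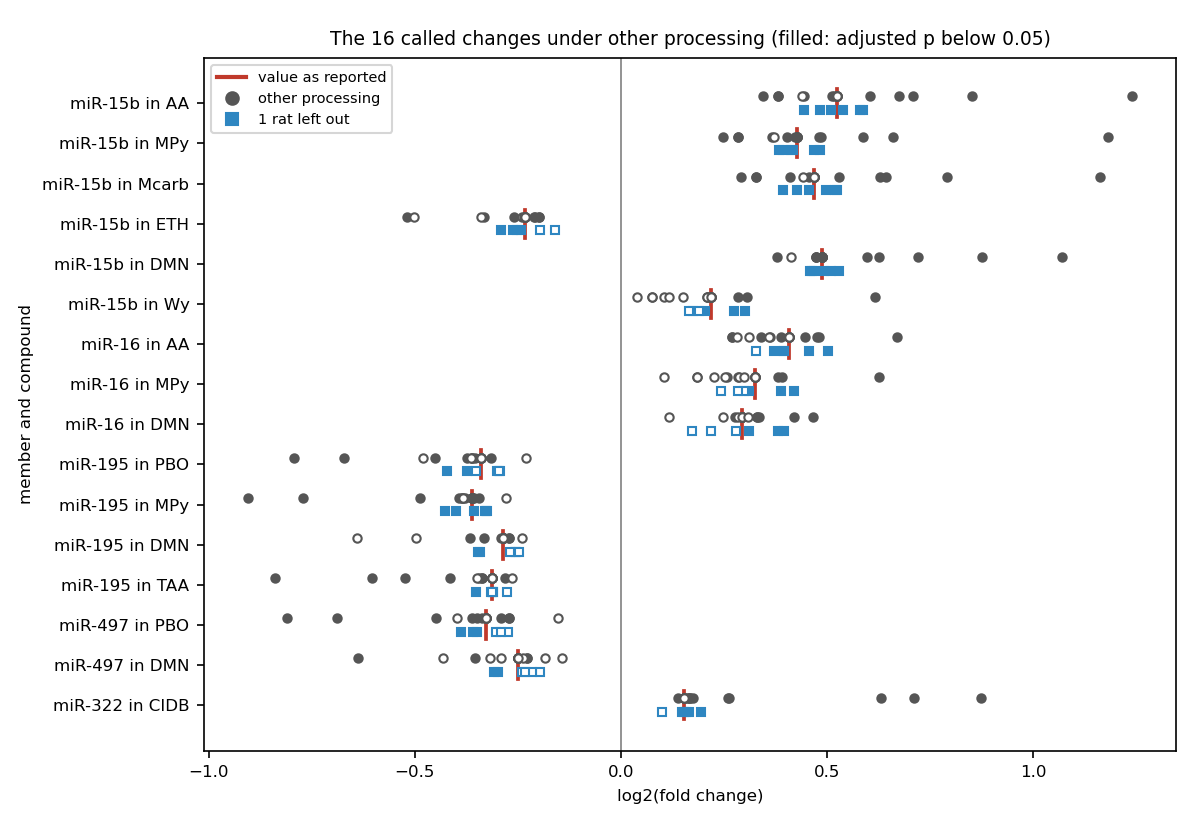
Log2(fold change) (x axis) of the 16 called combinations of member and compound (y axis) as reported (red line), under other processing (grey circles) and with 1 rat left out (blue squares), filled where the adjusted p stayed below 0.05. No point crosses 0, and the squares of miR-15b in AA, MPy, Mcarb and DMN are all filled.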

How the data were processed

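Livers of 63 rats in 21 groups of 3 were profiled on 1-colour Agilent miRNA arrays. In the comparisons of groups each rat is 1 replicate, and p-values rest on the spread between rats within all 21 groups. In the class comparisons each compound is 1 unit, and p-values rest on the spread between compounds. Each array file holds spot intensity values that the authors obtained with Agilent Feature Extraction 10.7.3.1 (per the file headers). The deposited value table holds log2 values of 135 miRNAs, which the authors made with a robust multi-array average for Agilent miRNA arrays without background correction. Quantile normalization between arrays was applied to the mean signal intensity of single spots. For each probe, the normalized values of its spots were combined as their mean. Probes were summarised by median polish on the log2 scale, and miRNAs detected on at least 1 array were kept (162 of 350). Groups were compared with limma 3.58.1 (R 4.3.3) in 1 fit over all 63 arrays, with Benjamini-Hochberg adjustment over 162 miRNAs and a threshold of 0.05. Classes were compared with limma and an exact permutation test over compounds. The code was tested on simulated data. The number of arrays limits the precision. No spot of a member was saturated.

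The members, marker lists, related miRNAs and tests were chosen with earlier results of these data known. The genes named were the 5 members, their passenger strands, miRNAs with related 5′ ends, the X chromosome cluster of miR-322, markers of other cell types and the 3 miRNAs with the most similar group means for each member. The alternatives were the deposited value table, a normexp correction (offset 50), the background-subtracted signal scaled to the 75th percentile, the mean of probes, other detection filters, slide or scan day as a block, pooling of controls that received the same vehicle, fits of only the 2 groups compared, each probe alone, the assignment of the value table, the replicate number as a block, and leaving out each rat. The pooled vehicles combined with the assignment of the value table and the values within a slide or scan day were added after the data were seen.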

Additional observations from a re-analysis of the deposited data

How the results depend on the processing

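All 16 called changes kept their direction under every alternative run: over 272 values under other processing 202 stayed called and 70 did not, and over 96 values with 1 rat left out 63 stayed called and 33 did not. The other detection filters, the fits of only the 2 groups compared and the replicate block leave a fold change as it is. So does the mean of probes for members with 2 probes. In these settings the direction could not change, and only the call was tested. Of 75 combinations, 9 were called higher and 7 lower. The background-subtracted signal scaled over detected miRNAs gave 12 higher and 2 lower, and scaled over all miRNAs 5 higher and 9 lower. These scalings moved the median of all miRNAs by -0.18 to 0.38 and by -0.26 to 0.25 on the log2 scale, the value table by up to -0.12 (PBO), and relative to that median all 16 changes kept their direction. Without a detection filter 8 were higher and 4 lower. With each probe alone, miR-15b in Wy, miR-195 in PBO and miR-16, miR-195 and miR-497 in DMN were called by only 1 of 2 probes. The other called changes were called by both. The slide gave 1 higher and 2 lower as a fixed block and 6 higher and 3 lower as a random block, the scan day as a block 8 higher and 11 lower, and only the 2 groups compared 2 higher and 3 lower. Pooling the controls of the same vehicle gave 8 higher and 15 lower, with or without the assignment of the value table, and that assignment alone 6 and 7. Leaving out 1 rat at a time gave 6 to 10 higher and 5 to 9 lower. The calls over all 162 miRNAs moved with the setting as well. With pooled controls they went from 14 to 43 in PBO and from 22 to 11 in AA. With the slide as a fixed block they went from 30 to 2 in MPy and from 14 to 22 in PBO. The counts of members by setting are therefore not a result about the family. The 5 calls between vehicle sets fell to 0 with slide or scan day as a block. The class comparisons rose from 0 to 2 calls with the slide as a fixed block (miR-195, carcinogens against NC, adjusted p = 0.0253, and miR-322, NGC against GC, adjusted p = 0.0435). Both GC values of that miR-322 call depend on CIDB rat 3. The Nif value of the miR-195 call depends on CFX rat 3 and rat 4 of MC set 1. A slide block leaves few slides with both arms, and pooled vehicles add controls and change the level compared against. The cause of the changes in the number of calls was not tested. No setting called miR-195 or miR-497 higher. miR-195 was negative in 11 to 14 and miR-497 in 11 to 15 of 15 compounds over all settings. For PB and CPA, whose numbers match those of their controls, the replicate block gave 9 higher and 7 lower. Same-numbered rats correlated at -0.26 to 0.05, and 1 of 6 correlated best with its own number. No pairing by number was seen, although 6 pairs cannot exclude it.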
